A study of Homo sapiens with 6 samples.

Results

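The enzymes of glycolysis from glucose phosphate isomerase to pyruvate kinase were examined in MDA-MB-231, a long-established human cell line derived from triple-negative breast cancer. They comprised 10 genes (GPI, ALDOA, ALDOC, TPI1, GAPDH, PGK1, PGAM1, ENO1, ENO2 and PKM), matched by symbol to the platform annotation of the array. Phosphofructokinase, whose step lies between those of GPI and aldolase, was not among them. Of the 10, 9 had a probe set of their own among 28230 tested probe sets, and where a gene had more than 1, the probe set of highest mean log2 intensity stood for it. They are 9 of 18404 genes represented on the array. PGAM1 had 4 probe sets, all annotated to both PGAM1 and PGAM4, and these are described apart from the other enzymes because the annotation does not part the 2 genes. Cells grown in 10 mM fructose (3 arrays) were compared with cells grown in 25 mM glucose (3 arrays), all in DMEM for 25 days, and each array held RNA from a separately adapted batch. RNA was harvested near 70% confluency, roughly 24 hours after the medium was renewed. Sugar type, sugar concentration and lack of glucose changed at once and cannot be told apart, and all batches came from a single cell line.

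Along this part of glycolysis a hexose phosphate is rearranged, split into triose phosphates and oxidised to pyruvate. The steps of phosphoglycerate kinase and pyruvate kinase form ATP, and the step of GAPDH reduces NAD+. Several steps have isozymes with different tissue patterns, among them aldolase A (ALDOA, broadly expressed) and aldolase C (ALDOC, best known from brain), and enolase 1 (ENO1, broadly expressed) and enolase 2 (ENO2, best known from neurons). Many of these genes are known targets of the hypoxia factor HIF1 and of MYC, and tumour cell lines commonly express them at high levels. Fructose enters past the step of GPI, either as fructose phosphate made by hexokinase, or at the level of the triose phosphates after ketohexokinase and aldolase B.

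The promoters of the enzymes are shown for the letters ACGTG, read on either strand, which form the core of the hypoxia response element, and for CACGTG, an E-box of the kind that MYC and the glucose-responsive factors MondoA and ChREBP can bind. A CACGTG holds ACGTG on both strands and was counted as 1 match of each motif. RefSeq (GRCh38.p14) gave 13 promoter windows for all 10 genes, each from 250 bases before a transcription start to 50 bases after it. ACGTG was present in a window of 7 of the 10 genes, against 28.5% of 15842 protein-coding genes in the same table. CACGTG was present for 3 of the 10 genes (ALDOA, ALDOC and GAPDH), against 10.9% of protein-coding genes. ALDOA had 3 windows and TPI1 had 2, which gives these genes more room for a match. No match of either motif was found in the windows of PGAM1, ENO1 and PKM, which says only that these letters are not in these windows. The window of PGK1 held 3 separate ACGTG matches, at positions -202, -183 and 29 from the start. Of all 35116 windows, 0.487% held at least 3. These windows also cover genes that are not protein-coding, and ACGTG was present in 24.9% of all genes. The share of such windows among protein-coding genes alone was not computed, and GC content (70.7% for PGK1) was not matched. The sequence of the PGK1 window is printed because PGK1 showed the largest difference between the sugars among the 9 enzymes. The windows of ALDOC and GAPDH are printed beside it because both hold a CACGTG and both genes differed little. The ALDOA window with a CACGTG is not printed, and ALDOA had the largest upward difference of the 9 enzymes (0.08). The printed windows were picked with the differences known, so no link between motif and difference can be read from them. Capitals mark each match of ACGTG on either strand, and where a match is a CACGTG all its letters are capitals.
PGK1 (chrX:78103998-78104297, plus strand): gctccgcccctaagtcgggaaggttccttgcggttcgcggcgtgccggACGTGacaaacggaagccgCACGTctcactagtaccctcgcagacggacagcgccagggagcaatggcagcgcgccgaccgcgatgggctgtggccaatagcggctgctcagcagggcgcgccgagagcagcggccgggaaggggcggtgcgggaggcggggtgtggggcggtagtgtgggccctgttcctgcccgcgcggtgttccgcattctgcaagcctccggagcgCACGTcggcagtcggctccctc
ALDOC (chr17:28576846-28577145, minus strand): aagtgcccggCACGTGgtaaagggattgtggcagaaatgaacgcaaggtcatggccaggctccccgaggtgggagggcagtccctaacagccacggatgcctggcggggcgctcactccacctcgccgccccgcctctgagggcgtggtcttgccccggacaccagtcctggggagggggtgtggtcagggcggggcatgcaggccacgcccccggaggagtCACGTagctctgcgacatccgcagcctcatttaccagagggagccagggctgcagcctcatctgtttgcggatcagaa
GAPDH (chr12:6535014-6535313, plus strand): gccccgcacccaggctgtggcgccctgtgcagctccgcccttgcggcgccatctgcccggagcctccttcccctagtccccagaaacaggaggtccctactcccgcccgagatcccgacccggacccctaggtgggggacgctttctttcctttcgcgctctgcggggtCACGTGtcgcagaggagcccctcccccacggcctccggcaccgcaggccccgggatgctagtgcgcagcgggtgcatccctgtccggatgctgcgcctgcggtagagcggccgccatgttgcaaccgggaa
These matches describe sequence, and no factor's binding was measured.

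The deposited values were intensities made with RMA, on a linear scale from 2.15 to 9287, and log2 was taken before testing. Fructose replicate 2 stood apart from the other fructose arrays. On the first principal component (28.8% of the variance) it lay at -5.67, against -17.9 and -19.3 for the other fructose arrays and 13.5 to 14.8 for the glucose arrays. Of 6 markers of the line, 5 were brighter than the median probe set, among them VIM, CD44 and EGFR, and SPARC was dimmer. EGFR was higher in fructose by 0.21 at an unadjusted p below 0.05, as were 7.65% of all probe sets. Of 9 luminal markers 5 were brighter than the median probe set, while the receptors ESR1 and PGR and the cadherin CDH1 were dimmer. EPCAM (-0.47) and KRT8 (-0.27) were lower in fructose at an unadjusted p below 0.05, against 5.43% of all probe sets, and KRT19 (0.12) was higher on every fructose array. The summed intensity of the luminal list ran from 2866 to 3051 in fructose and from 2976 to 3024 in glucose. Of 5 measured leukocyte markers 4 were dimmer than the median probe set (PTPRC, CD3E, CD14 and ITGAM). The other, CD68, a lysosomal protein also made outside leukocytes, was brighter than 98.6% of probe sets and higher on every fructose array (0.15). It made up most of the summed intensity of that list, 1714 to 1942 in fructose and 1592 to 1677 in glucose. Of 7 fibroblast markers COL1A1 alone was brighter than the median probe set, and their sum was 123 to 129 in fructose and 130.0 to 132 in glucose, with COL1A1 and PDGFRB lower on every fructose array and PDGFRA differing by 0.14. Of all probe sets, 8.81% lay lower and 11.4% higher in fructose without overlap. The part of these markers in the values below was not tested. With limma (Benjamini-Hochberg over all probe sets, threshold 0.05), 1 probe set was called, or 0.00354%, and it was TXNIP, a glucose-induced brake on glucose uptake. Its intensity was 107, 122 and 136 in fructose, against 1639, 1781 and 1656 in glucose.

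None of the 9 enzymes passed this test, against the same 0.00354% of all probe sets. By direction, 7 of the 9 were lower in fructose and 2 were higher, where 43.8% of all probe sets were lower. The 95% intervals of 8 of the 9 included 0. Most of these enzymes are bright, and the share lower among bright probe sets alone was not computed. In bulk RNA, a lower level in every cell and fewer cells with a high level cannot be told apart. The differences ran from -0.18 for PGK1 to 0.08 for ALDOA on the log2 scale, with a median of -0.023, and the median over all probe sets was 0.021. Adjusted p values by limma ran from 0.34 to 0.996. The 95% intervals of the 9 enzymes lay between a level 20.8% lower (the lower bound of PGK1, -20.8%) and 17.7% higher (the upper bound of ALDOA). These intervals therefore exclude, for each single enzyme and without adjustment for the number of enzymes, changes the size of that seen for TXNIP. At an unadjusted p below 0.05, 1 of the 9 (11.1%) was lower in fructose and 0 were higher, against 5.43% lower and 7.65% higher among all probe sets. Among 1058 probe sets of a mean intensity above 800, where most of these enzymes lie, 6.99% were lower at that p. The share of the enzymes is that of 1 gene and lies near this background.

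**Figure D1:**
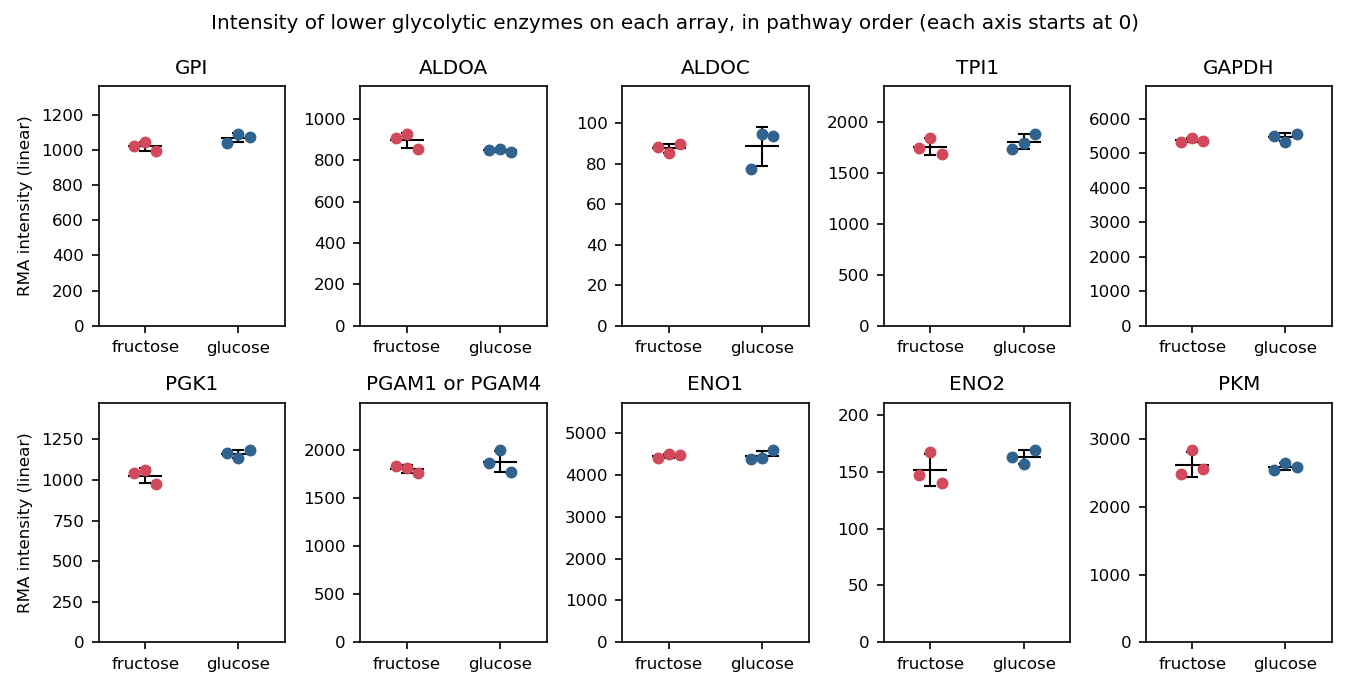
Each panel plots the RMA intensity (linear scale from 0) of an enzyme on the 3 fructose arrays, left, and the 3 glucose arrays, right, with the mean and SD as black lines, and PGAM1 or PGAM4 is its brightest shared probe set. The arrays of the sugars overlap in every panel except PGK1, where fructose lies between 975.2 and 1064 and glucose between 1133 and 1181.

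GPI, which interconverts the phosphates of glucose and fructose, had intensities of 1023, 1042 and 992 in fructose, against 1040, 1090 and 1075 in glucose. The fructose array of replicate 2 lay just above the lowest glucose array, so the groups overlapped. The log2 difference was -0.068 (SE 0.064, 95% interval -0.22 to 0.082, limma adjusted p = 0.70).

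Aldolase cleaves fructose bisphosphate into a pair of triose phosphates. ALDOA had intensities of 905, 927 and 854 in fructose, against 847, 856 and 838 in glucose. Replicates 1 and 2 in fructose lay above every glucose array, and fructose replicate 3 lay just below the highest of them. It had the largest difference in the upward direction among the 9 enzymes, with 0.08 on the log2 scale (SE 0.066, 95% interval -0.076 to 0.23, limma adjusted p = 0.66). ALDOC had intensities of 88.4, 85.3 and 89.6 in fructose, against 77.6, 94.8 and 93.7 in glucose. The fructose arrays all fell inside the range of the glucose arrays, whose spread came from the low value of replicate 1. Its log2 difference was -0.0094 (SE 0.094, limma adjusted p = 0.98), and the sign turned to 0.042 without glucose replicate 2 and to 0.033 without glucose replicate 3.

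TPI1 interconverts both triose phosphates, so that each can enter the later steps. Its intensities were 1741, 1845 and 1688 in fructose, against 1738, 1798 and 1882 in glucose. The groups overlapped, and the log2 difference was -0.039 (SE 0.071, 95% interval -0.21 to 0.13, limma adjusted p = 0.86). A further, dimmer probe set of TPI1 (brighter than 78.1% of probe sets) read 134, 147 and 165 in fructose, against 163, 121 and 136 in glucose. Its difference was 0.088 (SE 0.13, 95% interval -0.22 to 0.39), opposite in sign to the first, with both intervals including 0. That sign rested on single arrays, since the value was 0.20 without glucose replicate 1, 0.16 without fructose replicate 1, 0.011 without fructose replicate 3 and -0.011 without glucose replicate 2.

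GAPDH, which oxidises glyceraldehyde phosphate and is often used as a loading control, was brighter than 99.9% of tested probe sets. It read 5331, 5446 and 5368 in fructose, against 5512, 5335 and 5565 in glucose. These ranges overlapped and the log2 difference was -0.023 (SE 0.062, 95% interval -0.17 to 0.12, limma adjusted p = 0.91). Whether such bright probe sets were near saturation was not tested.

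PGK1 transfers phosphate to ADP and makes the first ATP of lower glycolysis. Intensities were 1040, 1064 and 975.2 in fructose, against 1165, 1133 and 1181 in glucose. Every fructose array lay below every glucose array, and PGK1 was the single one of the 9 enzymes for which this held (11.1%). None lay higher in fructose without overlap, against 11.4% of all probe sets. Among all probe sets 8.81% lay lower in fructose without overlap, and among those above an intensity of 800 it was 22.9%. The mean was 1026 ± 45.9 in fructose and 1160 ± 24.2 in glucose (SD, n = 3 each). The log2 difference was -0.18 (SE 0.068, 95% interval -0.34 to -0.017), a level lower by 11.5% in fructose (-11.5%). It did not pass over all probe sets (limma adjusted p = 0.34). Leaving out 1 array at a time gave -0.14 (without fructose replicate 3) to -0.20 (without fructose replicate 2), and the interval included 0 in each of these fits except the one without fructose replicate 2.

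Phosphoglycerate mutase, which moves the phosphate within phosphoglycerate, could be followed by the shared probe sets of PGAM1 and PGAM4. All 4 were lower in fructose, and the 4 cannot be taken as independent because they are annotated to the same pair of genes. The brightest read 1838, 1820 and 1759 in fructose, against 1868, 1998 and 1778 in glucose, and its arrays overlapped. Its log2 difference was -0.058 (SE 0.072, limma adjusted p = 0.78). The next read 1290, 1363 and 1367 in fructose, against 1379, 1379 and 1460 in glucose. Here the arrays did not overlap, though the difference was small at -0.069 (SE 0.067, adjusted p = 0.71 by limma). Another read 1219, 1276 and 1185 in fructose, against 1341, 1322 and 1357 in glucose. Again the groups did not overlap, with a difference of -0.13 (SE 0.065, 95% interval -0.28 to 0.025, adjusted p = 0.45 by limma). Of all probe sets above an intensity of 800, 22.9% lay lower in fructose without overlap. The dimmest read 103, 123 and 93.4 in fructose, against 144, 130 and 115 in glucose, and overlapped. It had the largest difference of the 4, -0.29 (SE 0.13, adjusted p = 0.40 by limma), which became -0.40 when fructose replicate 2 was left out and -0.20 when fructose replicate 3 was. Which of the genes each probe set reads was not analysed here.

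Enolase forms phosphoenolpyruvate. ENO1 read 4394, 4482 and 4471 in fructose, against 4379, 4403 and 4577 in glucose. The fructose arrays lay inside the glucose range, and the log2 difference was -0.0010 (SE 0.062, 95% interval -0.15 to 0.15, limma adjusted p = 0.996). ENO2 read 147, 167 and 140 in fructose, against 163, 157 and 169 in glucose. Replicates 1 and 3 in fructose lay below every glucose array, and fructose replicate 2 lay close to the highest. The difference was -0.11 (SE 0.086, 95% interval -0.31 to 0.094, limma adjusted p = 0.64). Leaving out fructose replicate 2 gave -0.18, and leaving out fructose replicate 3 gave -0.055.

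PKM, the pyruvate kinase of most tissues and tumours, makes pyruvate and ATP. Its intensities were 2488, 2836 and 2557 in fructose, against 2547, 2647 and 2588 in glucose. Fructose replicate 2 was the highest of the 6 arrays and fructose replicate 1 the lowest. The difference of 0.016 (SE 0.075, 95% interval -0.16 to 0.19, limma adjusted p = 0.95) turned to -0.040 without fructose replicate 2 and to -0.0097 when each array was centred on its median. The probe set is a single summary for the gene, so the splice forms M1 and M2 were not told apart. Of 5 measured splicing regulators of PKM, none passed the test over all probe sets. HNRNPA2B1, which with PTBP1 and HNRNPA1 is known to favour the M2 form, differed by -0.15 (1814, 1883 and 1797 in fructose, against 2041, 2034 and 2024 in glucose, limma adjusted p = 0.37). Its arrays did not overlap, where 22.9% of probe sets above an intensity of 800 lay lower in fructose without overlap. PTBP1 differed by 0.032 and SRSF3, which also favours M2, by -0.093.

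**Figure D2:**
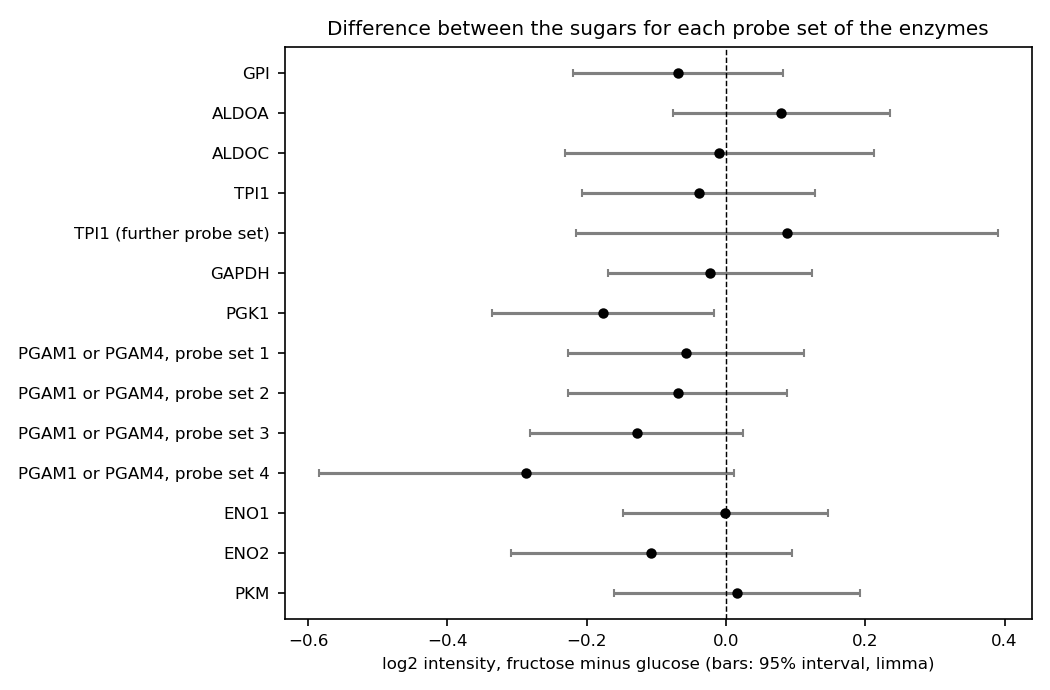
Points give the log2 difference in intensity, fructose minus glucose, for each probe set of the enzymes in pathway order, and bars the 95% interval from limma. Among the representative probe sets the interval of PGK1 alone excludes 0, and the 4 probe sets shared by PGAM1 and PGAM4 all lie below 0 with intervals that include it.

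Isozyme shares were followed within each pair of probe sets. The level of such a share depends on how each probe set responds and is not a share of transcripts, so its difference between the sugars is what can be read. ALDOC made up 8.89%, 8.43% and 9.50% of the summed intensity of ALDOC and ALDOA in fructose, against 8.39%, 9.98% and 10.1% in glucose. The groups overlapped, and the log2 ratio of ALDOC over ALDOA differed by -0.089 (SE 0.11, two-sided exact permutation p = 0.50). Leaving out 1 array moved this ratio to between -0.18 (without glucose replicate 1) and -0.039 (without glucose replicate 3), and it was -0.044 without fructose replicate 2, -0.045 without glucose replicate 2 and -0.14 without fructose replicate 3. ENO2 made up 3.23%, 3.59% and 3.04% of the summed intensity of ENO2 and ENO1 in fructose, against 3.58%, 3.44% and 3.55% in glucose. Replicates 1 and 3 in fructose lay below all glucose arrays and fructose replicate 2 above them. The log2 ratio of ENO2 over ENO1 differed by -0.11 (SE 0.075, two-sided exact permutation p = 0.40), by -0.17 without fructose replicate 2 and by -0.050 without fructose replicate 3. With 3 arrays against 3 the smallest p that the exact permutation test allows is 0.1, so neither pair could pass a threshold of 0.05.

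**Figure D3:**
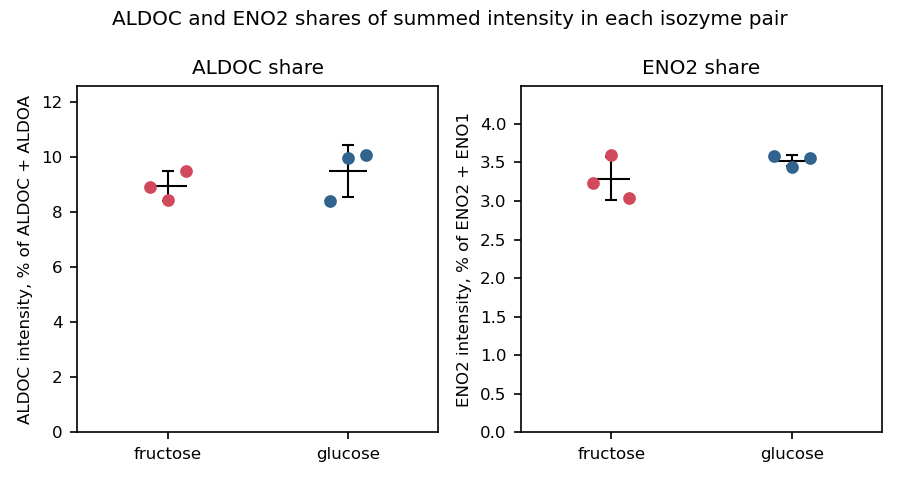
The intensity of ALDOC as a percentage of ALDOC plus ALDOA, left, and of ENO2 as a percentage of ENO2 plus ENO1, right, is plotted per array from 0, with mean and SD as black lines. In both panels the fructose and glucose arrays overlap, and fructose replicate 2 has the highest of all 6 ENO2 shares (3.59%).

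Most of the enzymes were highest on the same fructose array. Of the 9, 8 were highest on replicate 2 among the fructose arrays and 1 (ALDOC) on replicate 3. Among probe sets above an intensity of 800, which include 7 of the 9 enzymes, 47.5% were highest on fructose replicate 2, and among all probe sets 30.8% were. The median deviation of the 9 enzymes from their glucose means was -0.052, 0.0096 and -0.027 on fructose replicates 1, 2 and 3, and it was -0.024, -0.0056 and 0.027 on glucose replicates 1, 2 and 3. Fructose replicate 2 thus lay within the glucose range and fructose replicate 1 below it. Fructose replicate 3 lay only just below the lowest glucose array (-0.027 against -0.024). Deviations were taken from the glucose means, which in itself favours small values on the glucose arrays. Patterns were also compared by the root mean square difference of centred log2 values over the 6 arrays. For PGK1 the nearest of 11058 genes was TMPO, which encodes lamina-associated proteins, at 0.014. TMPO read 992, 1012 and 948 in fructose, against 1097, 1081 and 1134 in glucose. The nearest other enzyme to PGK1 was ENO2, at 0.060, and 618 genes lay closer to it. GPI and TPI1 were each other's nearest enzymes (0.035), as were GAPDH and ENO1 (0.022). The small distances of GAPDH and ENO1 follow from how little either varied. No enzyme had another of the 9 as its most similar gene. With so few enzymes among 11058 genes this was likely beforehand, so nothing is concluded from it. The number of genes closer to an enzyme than its nearest other enzyme ran from 37 (ENO1) to 1355 (ALDOA).

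Of the other isozymes of these steps, 7 of 9 listed genes were measured and none passed the test over all probe sets. BPGM, the mutase that makes and removes bisphosphoglycerate in red cells, read 81.3, 87.5 and 71.8 in fructose, against 102, 102 and 98.4 in glucose. Its arrays did not overlap, where 8.81% of all probe sets lay lower in fructose without overlap. The difference of -0.33 (SE 0.088, limma adjusted p = 0.22) was larger than that of any of the 9 enzymes. ENO3, the muscle enolase, differed by 0.24 (adjusted p = 0.40 by limma) and GAPDHS, the sperm form of GAPDH, by 0.25 (adjusted p = 0.41 by limma) at a dim level. Among 15 measured genes of the entry and committed steps none passed, with a median of 0.038. At an unadjusted p below 0.05, 1 was lower (TIGAR, a fructose bisphosphatase, -0.17), against 5.43% of all probe sets, and 3 were higher, against 7.65%. These were PFKFB2, which makes the activator of phosphofructokinase (0.38), the gluconeogenic phosphatase FBP1 (0.28) and hexokinase HK2 (0.19), and PFKP, a phosphofructokinase, differed by 0.11. FBP1 read 773, 843 and 773 in fructose, against 664, 621 and 687 in glucose, without overlap, where 11.4% of all probe sets lay higher without overlap.

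Among 12 genes of exit and branch steps, 8 were lower in fructose, where 43.8% of all probe sets were, the median was -0.094 and none passed. LDHA, which turns pyruvate into lactate, read 2169, 2279 and 2104 in fructose, against 2439, 2385 and 2428 in glucose. Its arrays did not overlap, where 22.9% of probe sets above an intensity of 800 lay lower in fructose without overlap. The difference of LDHA, -0.15 (SE 0.066, limma adjusted p = 0.40), was close in size to that of PGK1. GPD2, the mitochondrial glycerol phosphate dehydrogenase that draws on the triose phosphates, differed by -0.38 (adjusted p = 0.28 by limma), and ADPGK, an ADP-dependent glucokinase, by 0.18.

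Of 17 measured HIF targets outside glycolysis, 6 were lower (P4HA1, NDRG1, PDK1, EGLN3, BNIP3 and P4HA2) and 3 higher (SLC2A3, LOX and ADM) at an unadjusted p below 0.05, against 5.43% and 7.65% of all probe sets, and none passed the adjusted test. Some of these 9 are named after their values were seen. P4HA1, a collagen prolyl hydroxylase, differed by -0.38 and the glucose transporter SLC2A3 by 0.41, so the list held members on either side of PGK1 and its median was -0.0073. Among 10 transcription factors linked to glycolytic genes none passed. MLXIP (MondoA) differed by 0.29 (adjusted p = 0.17 by limma), EPAS1 (HIF2 alpha) by 0.45 and MYC by 0.39, and the arrays of each did not overlap. Of all probe sets, 11.4% lay higher in fructose without overlap. These 3 were the factors higher at an unadjusted p below 0.05, against 7.65% of all probe sets. At that p 1 factor was lower (SP1, -0.16, named after its values were seen), against 5.43%. HIF1A, chosen after its values were seen, differed by -0.12 (95% interval -0.32 to 0.087) with overlapping arrays.

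**Figure D4:**
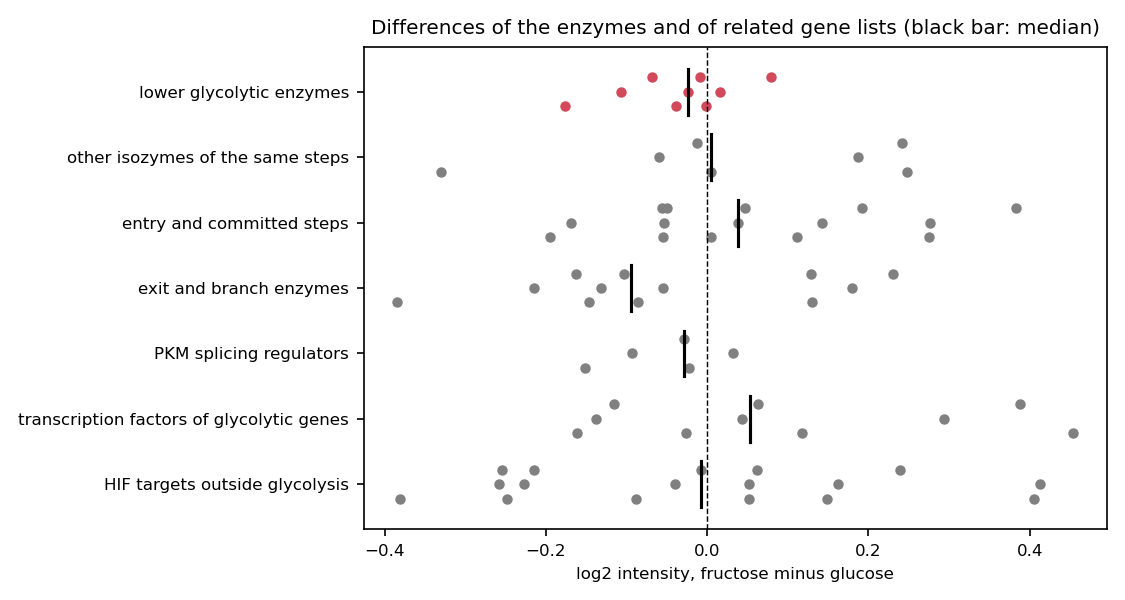
Each point is the log2 difference in intensity, fructose minus glucose, of a gene, by list, with the list's median as a black bar. The 9 enzymes lie between -0.18 and 0.08, a narrower span than that of the HIF targets, which reach from -0.38 to 0.41. The PKM splicing regulators span less, from -0.15 to 0.032. Lists differ in number of genes and in brightness, so their spans are not directly comparable.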

How the data were processed

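The authors deposited an intensity for every probe set on each of 6 arrays. Per the submitters' processing notes it came from RMA, which corrects background, normalizes between arrays and summarises probes, and this can compress small differences. The sources used here name no version, program or probe set filter. The intensities were read as linear from their range, and log2 was taken with no pseudocount. Of 32321 rows, 4091 numbered below the lowest annotated probe set were left out as likely controls. Their median log2 difference was -0.055. The mean log2 of these rows ran from 6.18 to 6.21 on the fructose arrays and from 6.26 to 6.31 on the glucose arrays. What this shift means for the enzymes was not tested. The platform annotation gave 19158 tested probe sets 1 symbol and 1388 several. Groups followed the sample titles. Differences (fructose minus glucose) were tested two-sided in R 4.3.3 by limma 3.58.1 through lmFit and eBayes without covariates, with Benjamini-Hochberg adjustment over 28230 probe sets, a procedure tested on simulated data. Isozyme ratios had an exact permutation test. Arrays carry no read depth, and their number limits the precision.

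All 9 enzymes are named, with the 3 smallest p of each further list and LDHA, PFKP, HK2, PTBP1 and TXNIP. Other marker genes are given as members of their list. Members and lists were chosen with earlier results of these data known. Alternatives tried were other scalings, variance models, filters and probe set choices, a replicate block and leaving out each array.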

Additional observations from a re-analysis of the deposited data

How the results depend on the processing

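None of the 9 enzymes passed in any of the 16 alternative fits or when the brightest shared PGAM1 or PGAM4 probe set was added, a choice made after seeing the data. The smallest adjusted p of PGK1 was 0.086, with an intensity trend and robust variances. The count of probe sets called over the whole array did depend on the variance model and on dim probe sets: it was 473 with trend and robust variances, 325 among the 14115 probe sets above the median mean log2 intensity, 202 with a pseudocount of 16 and 0 with the unmoderated test, against 1 in the reported fit, and the cause was not tested. The count of enzymes at an unadjusted p below 0.05 (PGK1 alone) was 0 with the replicate block and 0 to 1 with an array left out, being lost without any array other than fructose replicate 2. The median of the enzymes ran from -0.066 (without glucose replicate 1) to -0.0092 (without glucose replicate 3). Signs turned for ENO1 on repeated quantile normalization (0.011), PKM on centring (-0.0097), ALDOC with array weights (0.0028) and TPI1 as the mean of its probe sets (0.024). With an array left out, ENO1 ran from -0.013 to 0.019, ALDOC from -0.10 to 0.042 and PKM from -0.040 to 0.054. The sign of these 4 genes is thus not settled. The replicate block left the isozyme log2 ratios at -0.089 and -0.11 and gave PGK1 an adjusted p of 0.52 (limma). Replicate numbers did not pair the arrays: deviations of same-numbered arrays correlated at -0.026, -0.021 and -0.054 over probe sets.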
